A study of Homo sapiens with 6 samples.

Results

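Smooth muscle actin and the proteins that work with it on the contractile filament are described here through 10 genes: ACTA2, ACTG2, TAGLN, CNN1, CNN2, CNN3, MYL9, TPM1, TPM2 and CALD1. They were chosen by name, with earlier results of these data known, as the rows of the deposited table that carry these identifiers. All 10 were found among the 23284 genes listed, and all 10 were tested in each of the 3 comparisons.

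Contractile force in smooth muscle comes from myosin II filaments pulling on actin filaments. ACTA2 and ACTG2 encode the smooth muscle alpha and gamma actins. Tropomyosins lie along the actin filament, calponins, caldesmon (CALD1) and transgelin (TAGLN) bind to it, and the regulatory light chain MYL9 is phosphorylated by myosin light chain kinase to switch the motor on. Many of these genes are known targets of serum response factor (SRF), which binds a promoter element called the CArG box, and of its cofactors myocardin and the MRTF proteins. Neural crest, a migratory population of the vertebrate embryo, gives rise to smooth muscle of the great vessels among many other cell types, and most of these genes are also used in the stress fibres of cells that are not muscle.

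The study followed the wildtype human embryonic stem cell line WA01, an established line, over 3 time points with 2 libraries each: undifferentiated embryonic stem (ES) cells on day 0, pre-neural crest cells on day 3 and neural crest cells on day 5. Cells were dissociated and plated at 20000 per cm2 with 3 µM CHIR99021, a GSK3 inhibitor that activates WNT signalling, and 10 µM of the ROCK inhibitor Y-27632 was present early on. The medium, DMEM/F12 over Matrigel, also held Glutamax, B27 supplement at 2% and bovine serum albumin at 0.5%. ROCK is itself a regulator of actomyosin contraction. The labels list these conditions for every library, day 0 included, so they do not say which cells had received the compounds. The table gives 1 FPKM value (fragments scaled by transcript length and by sequenced total) per gene and group, with both libraries combined. No spread between libraries could be computed, the depth of each library is unknown, and the labels do not say whether 2 libraries of a group were 2 cultures. As the deposited p-values come from Cuffdiff on those libraries, any variation between libraries that they reflect may be technical. In bulk RNA a different number of expressing cells and a different amount of RNA per cell cannot be told apart.

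The summed FPKM of 6 pluripotency genes was 2116 on day 0, 507 on day 3 and 186 on day 5, and that of 10 neural crest genes was 31.3, 24.01 and 259.5. These sums rest on a few abundant genes: SOX2, which was at 203 on day 0 and 341 on day 3 and was not among the 5 of 6 pluripotency genes called lower there, made up most of the pluripotency sum on day 3. FOXD3, at 17.9 and 0.876, and ETS1 were the 2 crest genes called lower on day 3, while 6 of 9 tested were called higher, with a median log2 ratio of FPKM plus 1 of 0.79. Among all genes tested, 8.96% were called higher and 11.6% lower on day 3. Of these crest genes 4 of 10 were at an FPKM of at least 1 on day 0, 7 on day 3 and all 10 on day 5. Over all genes that reached FPKM 1 in both groups compared, the median log2 ratio was 0.05 from day 0 to day 3, -0.06 from day 3 to day 5 and -0.01 from day 0 to day 5.

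The promoters of 3 of the genes are shown first: ACTA2 and ACTG2, with 2 CArG-type elements each before a start, and CNN2, with 1. CArG-type here means the strict box or a relaxed form with 1 C or G in its core. Both elements of ACTA2 are of the relaxed form. A window of CALD1 also held 1 relaxed element and is not shown. Any bearing of these elements on the levels of the genes was not tested. RefSeq promoter windows (GRCh38.p14, 250 bases before to 50 after a start) were matched for 8 of the 10 genes, with 14 windows in all; TAGLN and MYL9 had none. Each line gives the 150 bases before the start, 5′ to 3′ on the strand of the gene, with capitals marking each CArG box or each version of it with 1 C or G inside its A/T core. The ACTA2 stretch lies at chr10:88952774-88952923 on the minus strand, before the more downstream of its 2 starts. The ACTG2 stretch lies at chr2:73892858-73893007 on the plus strand and the CNN2 stretch at chr19:1026458-1026607 on the plus strand.
ACTA2: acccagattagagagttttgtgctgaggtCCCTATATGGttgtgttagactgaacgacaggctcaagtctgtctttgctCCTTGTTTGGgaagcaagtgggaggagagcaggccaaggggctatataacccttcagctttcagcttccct
ACTG2: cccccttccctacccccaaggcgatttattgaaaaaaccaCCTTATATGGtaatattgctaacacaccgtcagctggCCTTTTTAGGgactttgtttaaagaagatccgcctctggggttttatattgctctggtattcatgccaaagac
CNN2: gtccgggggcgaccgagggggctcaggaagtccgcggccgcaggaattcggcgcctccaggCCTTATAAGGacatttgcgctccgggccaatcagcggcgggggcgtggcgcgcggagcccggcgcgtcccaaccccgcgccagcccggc

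In ACTG2 both elements have a pure A/T core and begin at positions -110 and -73, counting the base before the gene's start as -1. In ACTA2 both have 1 C or G in the core and begin at -121 and -71. CNN2 has a single element with a pure A/T core, at -89. All motifs were searched on both strands. The strict CArG box was present in 1.29% of 35116 promoter windows of the same length, and at least 2 of them in 0.0313%. With 1 C or G allowed in the core, a form of the motif searched after its strict form had been counted, the shares were 8.13% and 0.686%. In the remaining matched windows, of CNN1, CNN3, TPM1, TPM2 and CALD1 and the upstream window of ACTA2, the strict box was not found, and the relaxed one only in 1 of the 4 windows of CALD1. GGAATG, the core letters of the TEAD motif, occurred in the downstream ACTA2 window, in 1 of 2 windows of CNN3 and in 2 of 4 of CALD1, against 14.0% of all windows. CTTTGAT, a TCF/LEF motif, occurred in CNN2 alone among the genes matched (2.62% of all windows), and TATAAA in ACTG2 and in 1 window of CALD1 (11.5%). Such matches describe letters in a window and do not show that a factor binds there.

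**Figure D1:**
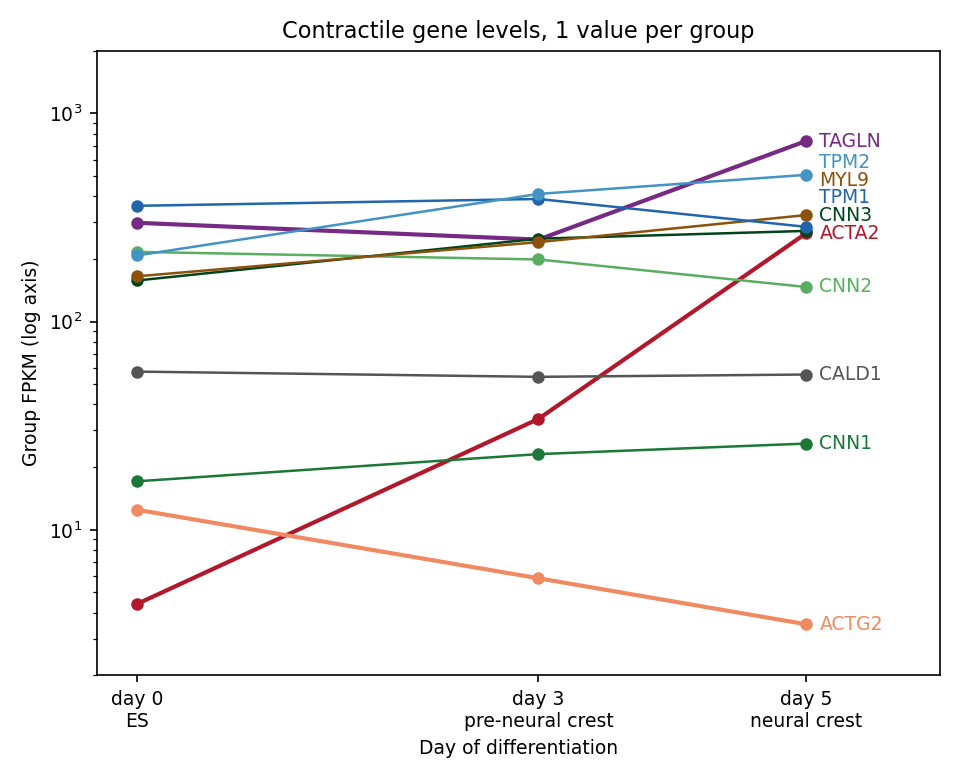
Group FPKM of the 10 contractile genes on a log axis against the day of differentiation; each point is 1 group value made from 2 libraries, and no error is available. ACTA2 climbs from 4.41 to 266 while ACTG2 goes from 12.5 to 3.52, and 7 of the 10 genes are at 100 or more on day 5.

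Most of the contractile genes were already abundant in the stem cells. On day 0 their FPKM ran from 4.41 (ACTA2) to 359.9 (TPM1), with a median of 161, and 6 of 10 stood at 100 or more. TPM1, TAGLN, CNN2, TPM2, MYL9 and CNN3 were each above at least 95.3% of the 13428 genes at an FPKM of at least 1. ACTA2, the gene most often used as a smooth muscle marker, was the lowest of the 10 and above only 26.9% of those genes. By day 5 the median was 269 and the top place was held by TAGLN at 737, above 98.9% of the expressed genes. The 10 genes together made up 0.144% of all FPKM on day 0, 0.180% on day 3 and 0.297% on day 5. Their own sums were 1497, 1854 and 2624, and the total over all genes was lower on day 5 than on day 0. TAGLN and ACTA2 gave most of the rise of the sum from day 0 to day 5.

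The smooth muscle actins gave the widest changes of the set, in opposite directions. ACTA2 (hg19 chromosome 10, 90694831 to 90775542) had group FPKM values of 4.41, 34.1 and 266 on days 0, 3 and 5. It therefore rose by nearly the same factor in each interval, 7.74-fold (log2 2.95 ± 0.48) and then 7.79-fold (log2 2.96 ± 0.36). Each ± here is a standard error worked back from Cuffdiff's statistic in the authors' deposited table. From day 0 to day 5 the rise was 60.3-fold (log2 5.91 ± 0.47), and the authors' deposited table gave each of the 3 comparisons its smallest q, 0.000596. ACTG2 (chromosome 2, 74120093 to 74146780) was at 12.5, 5.85 and 3.52. It fell by 1.09 ± 0.52 on the log2 scale from day 0 to day 3 (q = 0.0199, authors' deposited table) and by 1.83 ± 0.55 from day 0 to day 5 (q = 0.000596, same deposited table of the authors). The day 3 to day 5 interval alone gave a log2 ratio of -0.73 ± 0.56 without a call (q = 0.218, authors' deposited table). The first of these falls lost its call when p was instead taken from Cuffdiff's statistic under a normal distribution (the normal p). The normal p was adjusted in the same way, over the tested rows that held a numeric statistic. Of 48572 tested rows, 321 held none and could not be called by it. The ratio of the 2 genes turned over, from 2.83 ACTG2 per ACTA2 on day 0 to 75.4 ACTA2 per ACTG2 on day 5.

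The row of ACTA2 carries a locus that it shares with FAS, a death receptor gene, and FAS-AS1. FAS was at 2.47 on day 0, 4.66 on day 3 and 5.24 on day 5, with no call, so ACTA2 was 1.79 times FAS on day 0 and 50.7 times FAS on day 5. Of the 50-base stretches of the reference ACTA2 transcript (GENCODE release 29), 30.1% also occur, on one strand or the other, in a transcript of its antisense gene ACTA2-AS1. No other gene shares any. Whether the counting used strand is not given in the sources used here, so sense and antisense reads may be mixed in this value. For ACTG2 2 of 1481 stretches occur elsewhere, in POTEE, POTEF, POTEI and POTEJ of the POTE family. No stretch of either smooth muscle actin occurs in the other, or in ACTA1, ACTC1, ACTB or ACTG1.

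Set within the actin family, the smooth muscle actins remained a small part. The 6 actin genes had summed FPKM values of 4549, 4880.2 and 4499.98 on days 0, 3 and 5, and the cytoplasmic actins ACTB and ACTG1 made up most of each sum. ACTB was at 2900 (2899.6 unrounded), 3176 and 2243 and ACTG1 at 1576, 1610 (1609.6 unrounded) and 1767, with no call in any comparison. ACTA2 took 0.0968%, 0.699% and 5.90% of actin FPKM in the 3 groups. The 2 striated muscle actins also had their highest values on day 5. The cardiac actin ACTC1 was at 13.4, 21.4 and 127 and rose by 2.57 ± 0.41 on the log2 scale from day 3 to day 5. The skeletal actin ACTA1 was at 43.7, 33.0 and 93.4 and rose by 1.503 ± 0.28 in the same interval (q = 0.000596 for both, authors' deposited table). The 4 muscle actins summed to 74.0, 94.3 and 489.9, or 1.63%, 1.93% and 10.9% of the family.

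The tropomyosins, coiled coils that lie end to end along actin, gave a call for TPM2 and none for TPM1; the difference between the 2 was not tested. TPM2 (chromosome 9, 35681990 to 35690053) had FPKM values of 208, 411 and 507 on days 0, 3 and 5. It rose 1.97-fold by day 3 (log2 0.98 ± 0.39, q = 0.00401, authors' deposited table) and 2.44-fold by day 5 (log2 1.29 ± 0.39, q = 0.000596, same deposited table of the authors). The first of these rises lost its call under the normal p. TPM1 (chromosome 15, 63334838 to 63364113), the most abundant of the 10 on day 0, was at 359.9, 388 and 285 and was not called (log2 -0.34 ± 0.40 from day 0 to day 5, q = 0.489, authors' deposited table). The ratio of TPM2 to TPM1 was 0.578 on day 0, 1.06 on day 3 and 1.78 on day 5. Neither TPM3 (192, 140.4 and 132) nor TPM4 (283, 364 and 376) was called. Of the TPM1 stretches 14.4% also occur in transcripts of other genes, and of the TPM2 stretches none.

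Transgelin, an actin-binding protein also called SM22-alpha, rose in the second interval. TAGLN (chromosome 11, 117049939 to 117075508) had FPKM values of 298, 248 and 737 on the same days. The day 0 to day 3 ratio was -0.27 ± 0.41 on the log2 scale without a call (q = 0.595, authors' deposited table). From day 3 to day 5 it rose 2.97-fold (log2 1.57 ± 0.38), and from day 0 to day 5 2.47-fold (log2 1.30 ± 0.43), each called in the authors' deposited table (q = 0.000596). Its locus is shared with SIDT2 and LOC100652768, which were at 7.22 and 2.26 on day 5, and 27.8% of its 50-base stretches occur in transcripts of PCSK7. PCSK7 stood at 12.9, 14.7 and 16.3 with no call. Of the other transgelins TAGLN2 was at 64.9, 41.1 and 57.9 with no call, while TAGLN3, a form of neurons, rose in each comparison, with 3.63, 12.9 and 32.4. TAGLN took 81.3% of the transgelin sum on day 0 and 89.1% on day 5.

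The 3 calponins, which bind actin and inhibit myosin ATPase in smooth muscle, had highest values 1.52 (CNN1), 1.47 (CNN2) and 1.73 (CNN3) times their lowest. CNN1 (chromosome 19, 11649579 to 11661138), the smooth muscle form, was at 17.1, 23.1 and 26.0 and was not called (log2 0.60 ± 0.32 from day 0 to day 5, q = 0.156, authors' deposited table). CNN2 (chromosome 19, 1026298 to 1039064), found in many cell types, was at 216, 199 and 147, also without a call (log2 -0.56 ± 0.41, q = 0.152, same deposited table of the authors). CNN3 (chromosome 1, 95362507 to 95392735), the acidic calponin, was at 158, 250.2 and 273. It rose 1.73-fold from day 0 to day 5 (log2 0.79 ± 0.39, q = 0.0256, authors' deposited table), but not under the normal p. On day 0 CNN2 had the highest level of the family, and on days 3 and 5 CNN3 had. For CNN2 13.8% of the stretches occur in other genes' transcripts, and for CNN1 and CNN3 none do.

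MYL9 (chromosome 20, 35169887 to 35178226), the regulatory light chain of smooth muscle myosin, was at 165, 241 and 325. Neither single interval was called. From day 0 to day 5 it rose 1.97-fold (log2 0.98 ± 0.40, q = 0.00157, authors' deposited table), but not under the normal p. Of the non-muscle light chains MYL12B fell from 195 to 89.8 by day 3 and rose to 145 by day 5, the rise not being called by the normal p. MYL12A was at 214, 134 and 181 with no call. MYL9 accordingly held 28.8% of the 3 light chains on day 0, 51.8% on day 3 and 49.9% on day 5. CALD1 (chromosome 7, 134464164 to 134655480), which encodes caldesmon, moved least of the 10, with 57.5, 54.3 and 55.7. Its day 0 to day 5 ratio was -0.05 ± 0.37 on the log2 scale (q = 0.946, authors' deposited table). No stretch of MYL9, TPM2 or CALD1 occurs in another gene's transcripts.

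**Figure D2:**
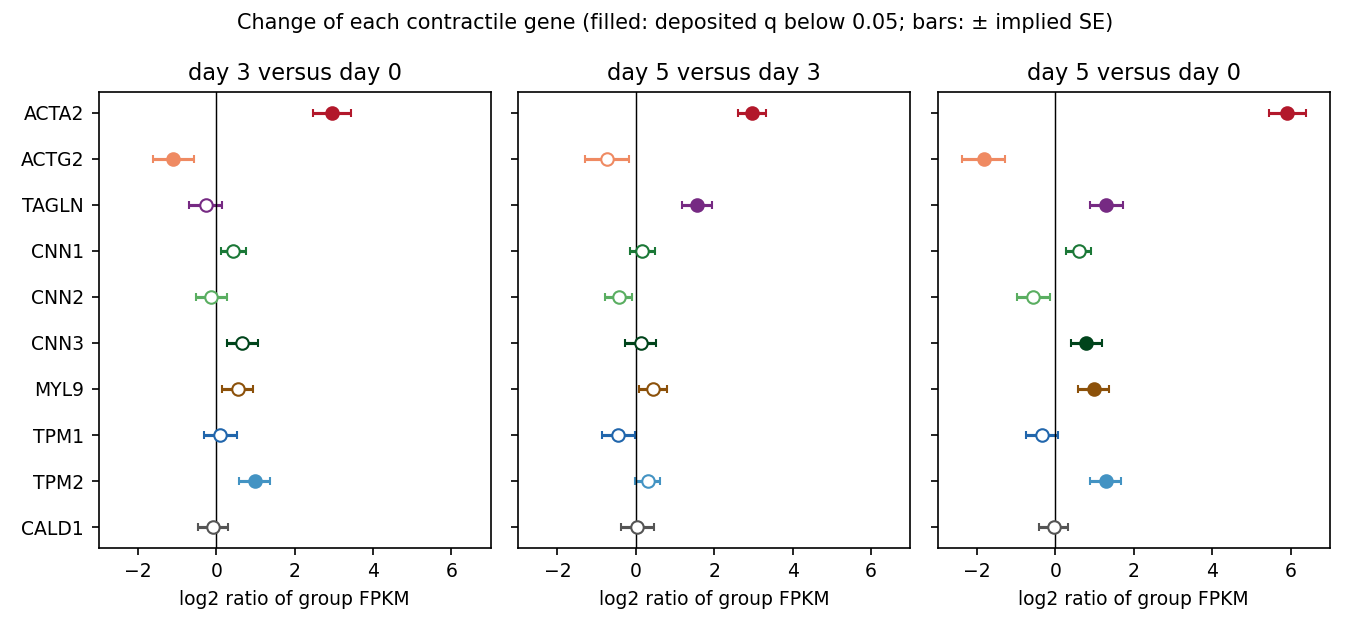
Log2 ratio of group FPKM for each of the 10 genes in the 3 comparisons; filled points were called (q under 0.05, authors' deposited table), and bars are ± 1 standard error worked back from Cuffdiff's statistic. ACTA2 is the one gene called in all 3 comparisons, and CNN1, CNN2, TPM1 and CALD1 are open in each.

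Counted together, 2 of the 10 genes were higher on day 3 than on day 0 (ACTA2 and TPM2) and 1 was lower (ACTG2), by the call of the authors' deposited table (q under 0.05). Of all 16231 genes tested, 8.96% were higher and 11.6% lower. From day 3 to day 5, 2 were higher (ACTA2 and TAGLN) and 0 lower, where 5.93% and 6.68% of 15932 genes were called. For that 0, Cuffdiff's unadjusted p was below 0.05 for 0 falling genes too, and the normal p called 0. From day 0 to day 5, 5 were higher (ACTA2, TAGLN, CNN3, MYL9 and TPM2) and 1 lower (ACTG2), against 12.2% and 14.7% of 16409 genes. The comparisons share groups, so these counts are not independent of each other. The 10 genes were also chosen with earlier results of these data known, so the shares of all genes are given as a description only. The median log2 ratio of FPKM plus 1 over the 10 genes was 0.26 from day 0 to day 3, 0.14 from day 3 to day 5 and 0.68 from day 0 to day 5, against 0.03, -0.04 and -0.01 over all genes tested. Under the normal p the genes higher from day 0 to day 5 numbered 3, namely ACTA2, TAGLN and TPM2.

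The course of ACTA2 set it apart from the other 9, since it was the one called higher in both intervals, as were 206 genes in all. On the scale of FPKM plus 1, 37 genes had a larger rise than ACTA2 from day 0 to day 5. Likeness to ACTA2 was measured as the Euclidean distance between pairs of interval log2 ratios of FPKM plus 1. Among 8195 other genes reaching an FPKM of 10, the 6 nearest were MAB21L2 (distance 0.365), NR2F2 (0.367), LGI1 (0.423), COLEC12 (0.713), TPBG (0.773) and DKK1 (0.844). MAB21L2 was at 0.202, 8.67 and 82.98, and the nuclear receptor NR2F2 at 0.161, 5.22 and 39.0. DKK1, a secreted WNT inhibitor, was at 0.207, 3.37 and 31.3. The likeness rests on 3 group values per gene and is a description. Adding 1 to FPKM shrinks the rise of genes near 0 on day 0. As plain ratios, MAB21L2 and NR2F2 rose more than ACTA2 from day 0 to day 3.

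**Figure D3:**
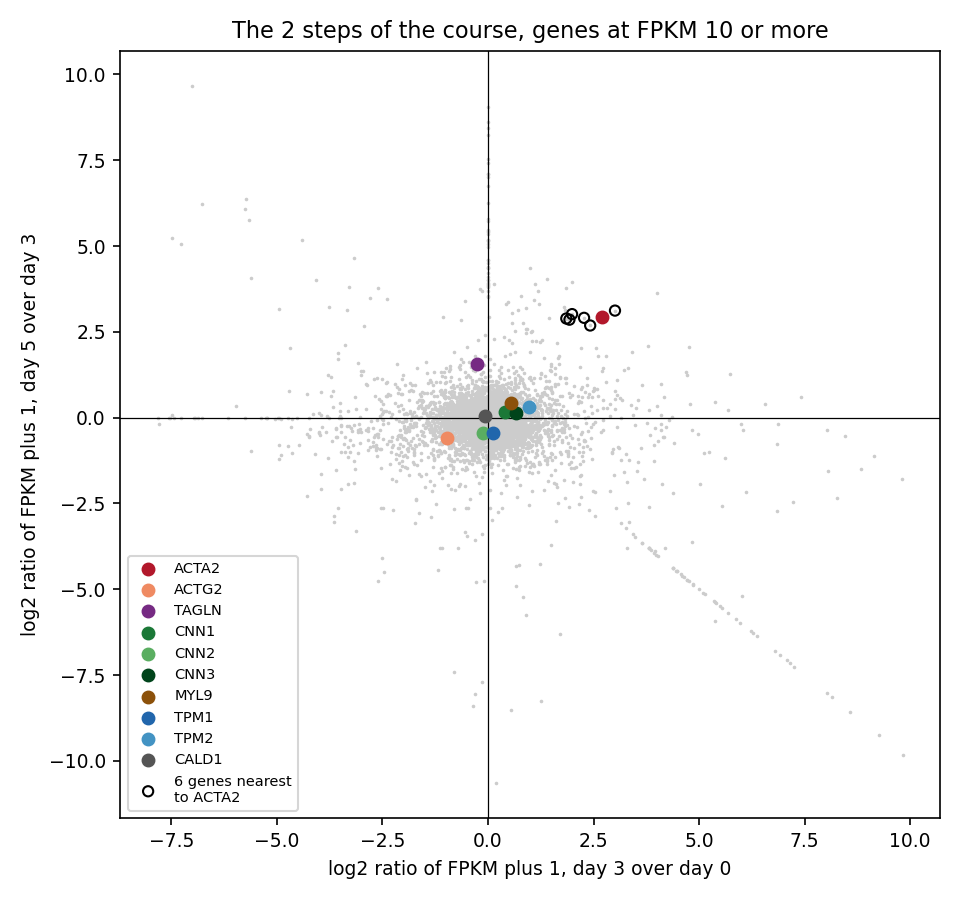
Log2 ratio of FPKM plus 1 from day 0 to day 3 (horizontal) against that from day 3 to day 5 (vertical); grey points are all genes reaching an FPKM of 10, coloured points the 10 contractile genes, and open circles the 6 genes nearest to ACTA2. ACTA2 lies at 2.70 and 2.92, and TAGLN sits left of and above the origin; day 3 enters both axes with opposite sign, so the 2 are not independent.

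Other genes of mature smooth muscle were called in both directions. Of 13 listed, CNN1 included, 2 were higher and 4 lower of 11 tested on day 3, 3 were higher and 1 lower of 11 from day 3 to day 5, and 2 were higher and 2 lower of 12 from day 0 to day 5. Over all genes tested, 8.96% were higher and 11.6% lower on day 3. Those shares were 5.93% and 6.68% from day 3 to day 5, and 12.2% and 14.7% from day 0 to day 5. On days 0, 3 and 5, 7, 8 and 6 of the 13 genes were below FPKM 1. LMOD1, SYNPO2 and MYOCD, each called lower in a comparison, were below 1 in every group. The normal p called 1 of the 4 lower genes on day 3 (SYNPO2; CSRP1, DES and LMOD1 lost their call), beside the same 2 higher. The list's medians on the scale of FPKM plus 1 were 0.10, 0.18 and 0.20, as log2 ratios, and 0.26, 0.36 and 0.61 over its genes at FPKM 1 or more in a group. MYLK, the kinase that phosphorylates the regulatory light chain, rose from 3.26 to 10.1 by day 3 and was at 11.6 on day 5. PDLIM7, a scaffold of actin filaments, rose from 61.5 to 145 and was at 187 on day 5. The LIM protein CSRP1 fell from 9.88 to 4.12 and rose again to 11.0 (10.96 unrounded). The integrin ITGA8 rose in the last interval, from 0.0379 to 1.01. MYH11, the myosin heavy chain that defines differentiated smooth muscle, was at 0.802, 0.958 and 0.953 with no call. MYOCD, which encodes myocardin, fell from 0.352 to 0.0387 between day 3 and day 5. SMTN was at 5.21, 5.65 and 6.46 with no call, and PLN was below 0.02 in every group and not tested.

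The counts for the non-muscle partners are read against the same shares of all genes tested, 8.96% higher and 11.6% lower on day 3, 5.93% and 6.68% from day 3 to day 5, and 12.2% and 14.7% from day 0 to day 5. Of 14 actomyosin genes, 1 was higher and 2 lower on day 3, 2 were higher from day 3 to day 5, and 1 was higher and 1 lower from day 0 to day 5, with TAGLN3 among those higher each time. For the 0 lower from day 3 to day 5, no falling gene had an unadjusted Cuffdiff p under 0.05 (0 genes) and the normal p called 0. The heavy chain MYH9 fell from 87.4 to 46.4 by day 3 and was at 78.0 on day 5. The cross-linker ACTN4 was at 90.6, 55.4 and 54.0 and was lower on day 5 than on day 0. Neither the fall of MYH9 nor that of ACTN4 was called by the normal p. The list's medians were -0.46, 0.12 and -0.21.

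More of the SRF list was lower than higher on day 3, and more was higher than lower from day 3 to day 5. Of 15 listed regulators and targets, 1 was higher and 6 were lower on day 3, then 5 were higher and 0 lower from day 3 to day 5. For that 0, 1 falling gene had an unadjusted Cuffdiff p below 0.05 and the normal p called 0. Over the whole course 3 were higher and 4 lower, and the medians were -0.17, 0.25 and -0.52. Among all genes tested, 8.96% were higher and 11.6% lower on day 3, so lower calls also outnumbered higher ones there. The shares were 5.93% and 6.68% from day 3 to day 5, and 12.2% and 14.7% from day 0 to day 5. The medians over all genes tested were 0.03, -0.04 and -0.01. SRF itself was at 28.4, 30.1 and 26.6 with no call, and MKL1, which encodes MRTF-A, at 9.66, 9.61 and 8.79, also with none. MKL2, which encodes MRTF-B, was higher on day 5 than on day 0 (7.25 against 4.03), but not by the normal p. The immediate early genes FOS (44.1, 0.748 and 6.17) and EGR1 (63.0, 5.12 and 25.7) and the matricellular gene CYR61 (92.0, 20.3 and 34.0) fell by day 3 and rose by day 5, the rise of CYR61 not being called by the normal p. ANKRD1, which encodes an ankyrin repeat protein of muscle, rose in both intervals, from 0.285 to 2.66 and 9.08.

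**Figure D4:**
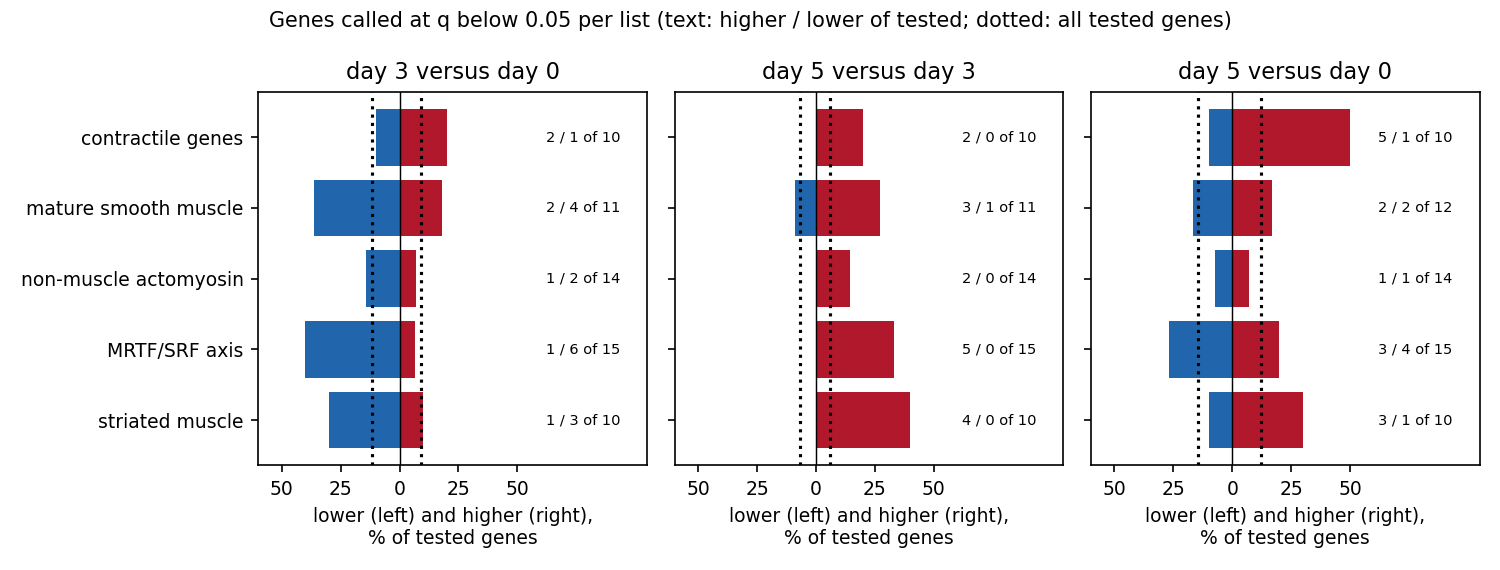
Percent of tested genes called higher (red, right) and lower (blue, left) by q under 0.05 (authors' deposited table), for the 10 contractile genes and 4 related lists; dotted lines give the share of all tested genes. The contractile genes reach 5 higher and 1 lower of 10 from day 0 to day 5, and the SRF axis goes from 1 higher and 6 lower of 15 to 5 higher and 0 lower.

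Markers of other cell types that use these genes were read beside them. For all genes tested the shares were 8.96% higher and 11.6% lower on day 3. They were 5.93% and 6.68% from day 3 to day 5, and 12.2% and 14.7% from day 0 to day 5. Of 15 striated muscle genes 10 were tested on day 3 against day 0, with 1 higher and 3 lower. From day 3 to day 5, 4 of 10 were higher (ACTA1, ACTC1, MYL4 and TNNT2) and 0 lower, with 1 falling gene at an unadjusted Cuffdiff p below 0.05 and 1, MYL7, called by the normal p. From day 0 to day 5, 3 were higher and 1 lower. The light chain MYL4 rose from 0.269 to 7.87 and 29.5. MYL7, also a light chain, went the other way, with 3.14, 0.861 and 0.229. It was called lower on day 3 and was the 1 lower from day 0 to day 5. The cardiac troponin gene TNNT2 fell from 12.7 to 2.77 and rose to 6.62, the rise not being called by the normal p. The list summed to an FPKM of 225, 209.5 and 368, to which the slow skeletal troponin gene TNNT1 gave 139, 135 and 102, and the troponin C gene TNNC1 was at 9.80, 7.09 and 7.31. Other genes of the list, picked after their values were seen, were near 0 in each group, with the heavy chains MYH6 and MYH7 at most at 0.103 and 0.186, the skeletal regulator MYOD1 at most at 0.205 and MYOG at most at 0.0233. MYL1 and MYOG were listed at 0 on day 0. Of 8 fibroblast and mesenchyme genes 2 were higher and 3 lower of 7 tested on day 3. From day 3 to day 5, 4 of 6 tested were higher and 0 lower, with 1 falling gene at an unadjusted Cuffdiff p below 0.05 and 0 by the normal p. From day 0 to day 5, 4 were higher and 2 lower of 7. Their sums were 219, 59.9 and 96.3, with THY1 alone making up most of the sum on day 0 and on day 3. On the scale of FPKM plus 1, the largest changes in this list were falls of THY1, a surface glycoprotein, and COL1A1, a collagen chain. As plain ratios of FPKM from day 0 to day 5, the rises of COL3A1 and LUM were larger. LUM was at 0.0342, 0.226 and 0.573 and was called higher on day 5 than on day 0, but not by the normal p. THY1 was at 158, 31.5 and 19.3 and COL1A1 at 34.2, 7.74 and 19.8, both lower on day 3 and on day 5 than on day 0, though for COL1A1 on day 5 not by the normal p. COL1A1 rose between day 3 and day 5. The collagen chain gene COL1A2 was at 24.1, 14.9 and 45.2. It was higher on day 5 than on day 3 and than on day 0, the latter not by the normal p. PDGFRB, a receptor of mural cells and mesenchyme, rose from 1.78 to 4.46 and 8.93, COL3A1 rose from 0.0991 to 0.956 and 2.38, and DCN stayed at or below 0.0623. For PDGFRB and COL3A1 the rise from day 3 to day 5 was not called by the normal p. Of 6 endothelial genes 2 were higher and 1 lower of 4 tested on day 3, 1 of 3 was lower from day 3 to day 5 and 2 of 4 were lower from day 0 to day 5. They summed to 35.4, 27.2 and 18.8, with PECAM1 and CDH5 at most at 0.0784 and 0.124. KDR, a VEGF receptor, fell from 22.2 to 3.14 by day 3 and was at 2.65 on day 5. TEK, the angiopoietin receptor, was at 12.2, 21.5 and 15.3 and was higher on day 3, though not by the normal p. VWF, von Willebrand factor, rose from 0.320 to 2.11 and fell to 0.697. The part of such cells in the rise of ACTA2 or TAGLN was not tested.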

How the data were processed

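RNA from 6 libraries of WA01 cells, 2 each on days 0, 3 and 5, was taken from poly-adenylated transcripts, per the labels' protocols. TopHat2 2.0.10, TopHat with no version, Cuffdiff 2.1.1 and the build hg19 appear in the submitters' processing notes. The gene annotation was not given in the sources used here, nor was strandedness. The deposited table holds the authors' group FPKM, the Cuffdiff test statistic (used as a score), p-values and q-values, per the file headers, for 69852 rows. The deposited q equals the Benjamini-Hochberg adjustment of p over 48572 tested rows across all genes and comparisons, to within 5.25e-07, and 4078 rows share the smallest p of 5e-05.

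A gene was called at status OK and q below 0.05. Ratios came from group FPKM with no pseudocount, list medians from FPKM plus 1. The implied standard error is the log2 ratio divided by the test statistic; Cuffdiff's p was often smaller than this error would give under a normal distribution, so it is a description. No test on library values was possible. Start positions were counted from 0 in the table (locus width equal to the RefSeq length as end minus start for 1901 genes, as end minus start plus 1 for 253) and are printed from 1. Transcript stretches of 50 bases, a length set without knowledge of the read length, came from the first-numbered coding GENCODE release 29 transcript of each gene, and promoters from RefSeq GRCh38.p14; their coordinates were not mixed with hg19. Members and lists were chosen with earlier results of these data known. All 10 members are named; from each other list up to 4 genes with the largest change at an FPKM of at least 1, plus those needed to make a count clear; others (ACTB, ACTG1, TPM3, TPM4, FAS, PCSK7, SRF and further defining genes) and the family sums were chosen after their values were seen. A further list of regulators is not reported here. The adjustment and normal p were tested on simulated data. Python 3.11.15, pandas 2.3.3 and SciPy 1.17.1 were used. Alternatives tried were a q of 0.01, adjustment within a comparison, the normal p, a 2-fold minimum, FPKM filters, pseudocounts of 0.1 and 1 and other scalings.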

Additional observations from a re-analysis of the deposited data

How the results depend on the processing

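The number of contractile genes higher on day 3 than on day 0 went from 2 to 1 under the normal p and to 1 with a 2-fold minimum, since TPM2 rose 1.97-fold. The number lower went from 1 to 0 at a q below 0.01 and to 0 under the normal p (ACTG2). Higher from day 0 to day 5 went from 5 to 3 under the normal p and to 3 with the 2-fold minimum. Each of the other 24 recomputed member counts was within 1.5 times the main one. Under other pseudocounts and scalings 1 of the member ratios changed sign, CALD1 from day 0 to day 5 (0.088 when FPKM was divided by the sum without small RNA genes), which was not called. Among all genes, the normal p and the stricter q changed counts by over 1.5 times, from 1454 to 915 and 946 higher on day 3 and from 945 to 530 and 586 higher from day 3 to day 5; lower genes in that interval went from 1064 to 619 at the stricter q. Higher genes from day 0 to day 5 went from 2007 to 1238 under the normal p. With only genes reaching FPKM 1 in both groups, the counts were 964 higher and 1061 lower on day 3, 558 and 709 from day 3 to day 5, and 1287 and 1466 from day 0 to day 5. Of the list medians 23 moved and 37 did not under a pseudocount of 0.1 or a filter at FPKM 1 in a group; the striated list from day 3 to day 5, for example, went from 0.12 to 1.25 with the filter. Dividing by the sum without small RNA genes shifted all ratios from day 3 to day 5 by 0.15 on the log2 scale. No paired analysis was possible because the table holds no values per library, and leaving out single libraries was not run for the same reason. Depth per library is unknown, so no counting limit can be given.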
